A study of Homo sapiens with 6 samples.

Results

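The TGF-beta, activin and BMP pathway was followed in MDA-MB-231 cells, an established triple-negative breast cancer line of mesenchymal character, after stable knockdown of WASF3. Of 43 pathway genes listed by symbol, 42 had a named probe set, out of 19775 genes on the array. BMPR1A was not analysed here. The members hold 120 probe sets in all, and for each gene the brightest one on average over the 6 arrays stands for it. The arrays came from 3 WASF3 knockdown clones and 3 control clones, each labelled as a single clone and picked after retroviral infection. Knockdown clones carried the pSM2 vector with 1 of 2 short hairpin RNAs against WASF3, and control clones carried the empty pSM2 vector or a hairpin against GFP. Which of these a given clone carried is not stated in the labels. All clones had survived 2 weeks in puromycin at 1.0 µg/ml, were labelled as passage 4 and were grown in RPMI 1640 with 10% fetal bovine serum, with no ligand of the pathway named as added. WASF3 encodes a WAVE protein that drives branched actin assembly at the cell edge.

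In this pathway a dimeric ligand brings together type I and type II receptor kinases, and the type I receptor then phosphorylates SMAD proteins that enter the nucleus with SMAD4. TGF-beta and activin act mainly through SMAD2 and SMAD3, and BMPs through SMAD1, SMAD5 and SMAD9. The inhibitory SMADs, BAMBI and the corepressor SKIL are themselves induced by the signal and hold it back. In breast cancer cells TGF-beta signalling is known for promoting invasion and metastasis, while BMP signals drive the ID genes.

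Values are log2 RMA signals, given as knockdown mean ± SD and control mean ± SD with n = 3 clones per group. Differences subtract control from knockdown, and SE is their standard error in the limma fit over all 54613 probe sets that are not controls. A gene was called when its Benjamini-Hochberg adjusted p was under 0.05. The exact permutation test of 3 against 3 arrays cannot go below p = 0.1, so single genes were tested through limma, and the number of arrays limits the precision.

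The targeted gene read 5.40, 5.80 and 4.52 in knockdown clones 1, 2 and 3, against 6.77, 6.42 and 6.59 in control clones 1, 2 and 3. Its difference of −1.35 (SE 0.29, adjusted p = 0.102 in limma) left no overlap but missed the threshold, and it passed without knockdown clone 3 (−0.99, adjusted p = 0.0175 in limma). The knockdown clones lay much farther apart than the control clones. Of all genes, 6.00% ranged over at least 1 log2 unit across the knockdown clones, while 0 of 19775 did so across the control clones, where the largest range was 0.987. The knockdown arrays correlated with each other at 0.984 to 0.992 over all probe sets, and the control arrays at 0.9975 to 0.9977. That the control arrays stem from separate clones rests on their labels alone, and each SE and p measures the spread between these arrays. Mesenchymal markers typical of the line (VIM, CD44, EGFR, CAV1 and AXL) read between 10.3 and 14.3, and 9 leukocyte markers between 3.05 and 6.17 with a median of 4.86. That leukocyte range is used here as the level at which a probe set is not shown to be above background. The 3 knockdown values of WASF3 lie within it, so the size of its fall is uncertain. RNA quality was read from control probe sets as the signal at the 3′ end minus that at the 5′ end, which was 2.11, 1.62 and 1.66 in knockdown clones 1, 2 and 3, against 1.13, 1.47 and 1.26 in control clones 1, 2 and 3. All knockdown arrays read above all control arrays on this measure, so a fit on 6 arrays cannot fully separate RNA quality from knockdown. Fits with this measure as a covariate are given beside the 4 genes called in the pathway, with that limit.

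INHBA, the subunit of activin A, was lower in the knockdown clones, and SMURF2, a ubiquitin ligase that degrades pathway receptors and SMADs, was higher. These were the 2 members called. The call share was 2.38% of members in each direction, against 0.420% of all genes called lower and 0.319% called higher. The members were chosen with earlier results of these data known, so this and the shares below are a description. At an unadjusted p under 0.05 there were 10 members, 1 higher and 9 lower, or 23.8% against 16.8% of all genes, where 9.11% were higher and 7.67% lower. Groups without overlap were found in 12 members, 3 higher and 9 lower, which is 28.6% against 24.7% of all genes (12.1% higher and 12.6% lower). The members are brighter than most genes, since 41 of 42 had a mean above 5. Among the 13043 genes above that level, 22.4% had an unadjusted p under 0.05 and 30.5% had no overlap. The shares of these 41 members were 24.4% and 29.3%, so both shares, pooled over directions, were near the background. By direction they were not. At an unadjusted p under 0.05, 22.0% of these members were lower against 9.68% of genes, and 2.44% were higher against 12.7%. The knockdown mean was lower in 68.3% of these members, against 49.5% of genes above that level. The knockdown mean was lower in 28 of the 42 members, or 66.7% against 52.4% of all genes. A difference of at least 1 log2 unit was seen in 2 members, INHBA and TGFBI, or 4.76% against 0.713% of all genes. The median difference was −0.06 over the members and −0.01 over all genes, and the median absolute difference was 0.26 over the members and 0.13 over all genes.

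Of 27 members with more than 1 probe set above a mean of 5, 19 gave differences of a single sign and 8 of both signs.

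**Figure D1:**
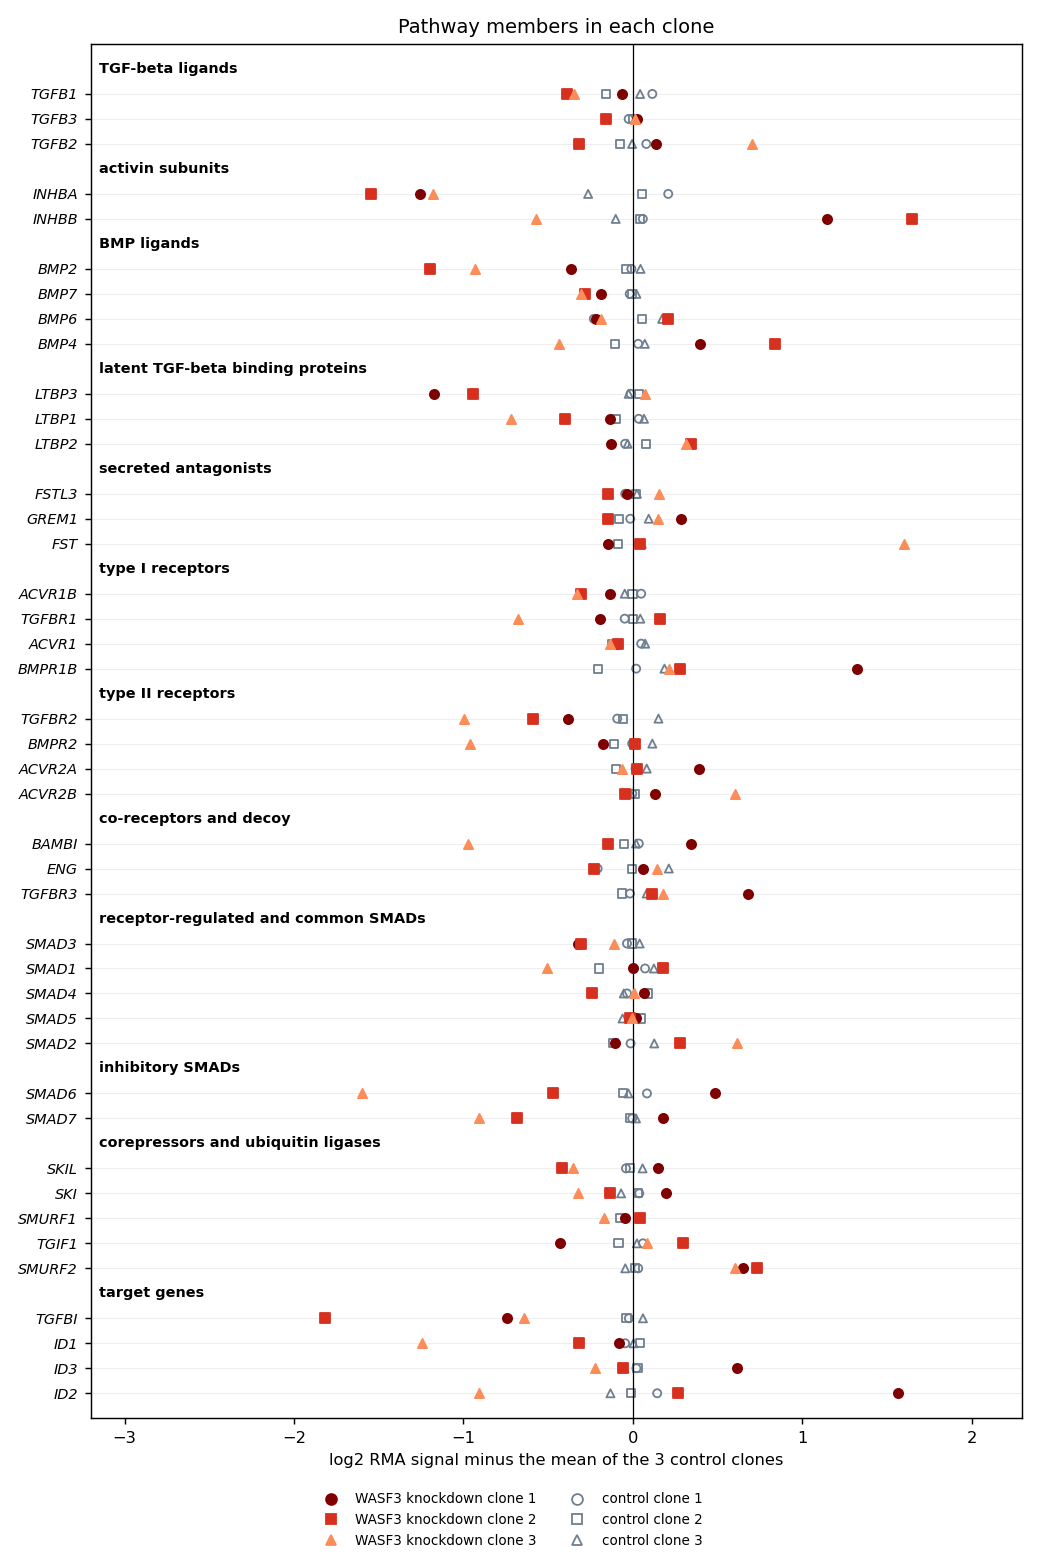
Log2 signal of the 42 members in each clone minus the mean of the 3 control clones (horizontal axis, log2 units), grouped by role. Filled symbols are WASF3 knockdown clones and open symbols are control clones, and INHBA and SMURF2 are the called members. Control clones ranged over less than 1 log2 unit in all 42 members, and knockdown clones over at least 1 in 12.

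Among the activin subunits, INHBA read 4.85, 4.56 and 4.92 in knockdown clones 1, 2 and 3, against 6.31, 6.16 and 5.84 in control clones 1, 2 and 3. Every knockdown value lay below every control value, and the means were 4.78 ± 0.19 in knockdown and 6.10 ± 0.24 in control clones. INHBA fell by 1.33 on the log2 scale (SE 0.15, limma adjusted p = 0.0311), to 39.8% of the control signal. A second probe set of INHBA, 227140_at, fell by 1.35 (SE 0.15, limma adjusted p = 0.0311), at 3.05 ± 0.30 in knockdown and 4.39 ± 0.10 in control clones. The third, 204926_at, was dim in both groups and differed by −0.17 (SE 0.11). The knockdown values of INHBA on its brightest probe set, and 2 of the 3 control values, lie within the leukocyte marker range. All values of 227140_at lie within or below that range. These values are thus not shown to be above background, and the size of the fall is uncertain. Of the 20 nearest genes with a mean above 5 around INHBA on chromosome 7, 10 on each side, 0 were called. Their median difference was −0.05. The call was lost without knockdown clone 2 (−1.22, adjusted p = 0.0716), without control clone 1 (−1.22, adjusted p = 0.258), 2 (−1.30, adjusted p = 0.230) or 3 (−1.46, adjusted p = 0.129), and after adding the RNA quality measure as a covariate (−1.39, adjusted p = 0.195), all in limma.

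The 250 bases before the INHBA start are shown because INHBA was the member that fell (GRCh38.p14, chr7:41703091-41703340, minus strand, 5′ to 3′, from RefSeq). In these 250 bases there was no match on either strand to GTCTAGAC, the palindrome bound by SMAD3 and SMAD4, to GGCGCC, letters bound by the SMADs of the BMP branch, or to TGACTCA, the AP-1 motif. These motifs occur before 0.182%, 16.4% and 4.20% of the 35116 starts in the RefSeq table, and none of them contains another.
INHBA: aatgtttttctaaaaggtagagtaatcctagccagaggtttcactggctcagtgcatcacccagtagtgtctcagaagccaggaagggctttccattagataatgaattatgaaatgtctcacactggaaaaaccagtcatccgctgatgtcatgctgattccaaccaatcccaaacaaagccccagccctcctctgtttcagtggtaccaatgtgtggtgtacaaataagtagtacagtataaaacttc

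INHBB, the subunit of activin B, was not called. Its level was 7.52, 8.02 and 5.80 in knockdown clones 1, 2 and 3, against 6.44, 6.42 and 6.28 in control clones 1, 2 and 3. Clones 1 and 2 were above all control clones and clone 3 was below them, and the mean difference of 0.74 (SE 0.50, limma adjusted p = 0.574) was within the spread. Without knockdown clone 3 it was 1.40 and passed (limma adjusted p = 0.00890). The value of clone 3 lies within the leukocyte marker range, so how far it fell below the controls is uncertain.

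Of the BMP ligands, BMP2 read 7.59, 6.76 and 7.02 in knockdown clones 1, 2 and 3, against 7.94, 7.92 and 7.998 in control clones 1, 2 and 3. The groups did not overlap, and the difference of −0.83 (SE 0.20) missed the threshold (limma adjusted p = 0.120). Its other probe set gave −0.62 (SE 0.18), also without overlap. BMP2 was called without knockdown clone 1 (−1.06, limma adjusted p = 0.0158) and with array weights (−0.91, limma adjusted p = 0.0294). BMP4 was scattered, at 9.60, 10.04 and 8.78 in knockdown clones 1, 2 and 3 and from 9.11 to 9.28 in control clones, and its difference of 0.27 (SE 0.29) was within the spread. BMP4 and INHBB shared their clone order, with clone 2 highest and clone 3 below all controls. BMP7 differed by −0.26 (SE 0.08, limma adjusted p = 0.226) with no overlap on this probe set, and its other 3 probe sets lay between −0.12 and 0.05. The means of those other 3 lie within or below the leukocyte marker range. BMP6 (−0.07, SE 0.15) overlapped and lay within the leukocyte marker range.

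None of the 3 TGF-beta ligands was called. TGFB1, the most studied isoform, gave −0.27 (SE 0.12, 95% interval −0.55 to 0.02) and TGFB3 gave −0.04 (SE 0.09), at a level within the leukocyte marker range. TGFB2 read 8.04, 7.58 and 8.60 in knockdown clones 1, 2 and 3, against 7.98, 7.82 and 7.90 in control clones 1, 2 and 3. Clone 3 was the high one and clone 2 was below the controls, and the difference was 0.17 (SE 0.23, 95% interval −0.37 to 0.72). A nearly as bright probe set, 209909_s_at, gave 0.48 (SE 0.17, limma adjusted p = 0.257) with clones 1 and 3 alike at 8.23 and 8.24 and clone 2 at 7.69, next to the highest control. The second probe set of TGFB1 gave 0.07 (SE 0.10).

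LTBP proteins tether latent TGF-beta to the matrix. LTBP1 read 9.33, 9.06 and 8.74 in knockdown clones 1, 2 and 3, against 9.50, 9.36 and 9.53 in control clones 1, 2 and 3, a difference of −0.42 (SE 0.15, limma adjusted p = 0.274) without overlap. Its other probe set gave −0.37, and the median difference of its 20 nearest genes on chromosome 2 with a mean above 5 was 0.38. LTBP3 read 7.13, 7.36 and 8.38 in knockdown clones 1, 2 and 3, against 8.29, 8.34 and 8.28 in control clones 1, 2 and 3. Clones 1 and 2 were below the controls and clone 3 just above them, and the difference of −0.68 (SE 0.29, limma adjusted p = 0.354) missed the threshold. Without clone 3 it was called (−1.06, limma adjusted p = 0.00720). On 227308_x_at all 3 knockdown clones lay below the controls, clone 3 included, with a difference of −0.45 (SE 0.13, limma adjusted p = 0.198), and on 237144_at the difference was −0.12 (SE 0.09). LTBP2 gave 0.18 (SE 0.14) and, on its other probe set, 0.48 (SE 0.22), both with overlap.

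Follistatin, the FST product, binds and neutralises activin. FST read 9.04, 9.23 and 10.79 in knockdown clones 1, 2 and 3, against 9.22, 9.10 and 9.24 in control clones 1, 2 and 3. Knockdown clone 3 stood alone above the rest, and its other 2 probe sets repeated this, at 10.6 and 7.24 in clone 3 with the other clones up to 8.95 and 6.26. The group difference of 0.50 (SE 0.41, limma adjusted p = 0.659) rests on that clone, and was −0.05 without it. FSTL3, a follistatin relative, gave −0.01 (SE 0.10, 95% interval −0.25 to 0.23). The BMP antagonist GREM1 read 3.11 or less on its representing probe set in all 6 clones, within or below the leukocyte marker range.

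Among the receptors, TGFBR2, the type II receptor that binds TGF-beta, read 10.94, 10.73 and 10.32 in knockdown clones 1, 2 and 3, against 11.23, 11.26 and 11.47 in control clones 1, 2 and 3. All knockdown clones were below all control clones. The difference was −0.66 (SE 0.16, 95% interval −1.04 to −0.27, limma adjusted p = 0.135), and the second probe set gave −0.44 (SE 0.13), also without overlap. Neither passed the threshold over all probe sets, and the second read within the leukocyte marker range in all 6 clones. TGFBR1, its type I partner, overlapped (−0.24, SE 0.19), with clone 3 at 9.54 the low value. ACVR1B, the activin type I receptor, gave −0.26 (SE 0.09, limma adjusted p = 0.271) without overlap. Of its 6 probe sets, 5 had a negative difference, but only the brightest, 213198_at, had a mean above the leukocyte marker range. On 205209_at and 208222_at the difference was −0.014 and −0.0032.

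None of the BMP receptors was called. BMPR1B, a type I receptor, read 7.58, 6.54 and 6.47 in knockdown clones 1, 2 and 3, against 6.28, 6.06 and 6.45 in control clones 1, 2 and 3, a difference of 0.61 (SE 0.29, limma adjusted p = 0.404). Clone 1 was the high one, while clones 2 and 3 lay just above the highest control. BMPR2, the BMP type II receptor, depended on the probe set. It gave −0.37 (SE 0.24) and −0.24 (SE 0.19) on the 2 brightest and 0.65 (SE 0.14) on 209920_at, where the groups did not overlap (limma adjusted p = 0.0980). Another probe set, dimmer than these, gave 0.38 (SE 0.14). ACVR1 (−0.11, SE 0.09), ACVR2A (0.12, SE 0.13) and ACVR2B (0.23, SE 0.16) overlapped between groups, and ACVR2B gave −0.13 (SE 0.14) on its second probe set. Of the co-receptors, TGFBR3 (betaglycan), which presents TGF-beta2 to the receptors, gave 0.32 (SE 0.16) without overlap on 1 probe set and 0.04 (SE 0.20) on the other. ENG, a co-receptor best known in endothelium, gave −0.01 (SE 0.14).

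None of the 5 SMADs that carry the signal was called. SMAD3 read 10.27, 10.28 and 10.48 in knockdown clones 1, 2 and 3, against 10.56, 10.59 and 10.63 in control clones 1, 2 and 3, a small difference of −0.25 (SE 0.09, limma adjusted p = 0.297) without overlap. Its second probe set, 205398_s_at, gave −0.00 (SE 0.09) and overlapped, and 205397_x_at gave −0.36 (SE 0.16), also with overlap. SMAD5 gave −0.00 (SE 0.08, 95% interval −0.19 to 0.19) on its brightest probe set, with its other 4 probe sets between 0.08 and 0.46. SMAD2 (0.26, SE 0.18), SMAD4 (−0.06, SE 0.11) and SMAD1 (−0.11, SE 0.18) overlapped. The 5 probe sets of SMAD2 above a level of 5 lay between −0.12 and 0.35. The 2 probe sets of SMAD4 above a level of 5 differed in sign, at −0.06 and 0.26.

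Among the ubiquitin ligases and corepressors, SMURF2 stood apart. It read 12.07, 12.15 and 12.03 in knockdown clones 1, 2 and 3, against 11.45, 11.43 and 11.38 in control clones 1, 2 and 3. The groups did not overlap and the clones of each group lay close together. SMURF2 rose by 0.66 on the log2 scale (SE 0.08, limma adjusted p = 0.0350), to 158% of the control signal, with means of 12.08 ± 0.06 in knockdown and 11.42 ± 0.04 in control clones. A second probe set of SMURF2, 230820_at, rose by 0.75 (SE 0.10, limma adjusted p = 0.0377), and the other 2 gave 0.28 (SE 0.10) and 0.33 (SE 0.13). None of the 20 nearest neighbours of SMURF2 on chromosome 17 with a mean above 5 was called, with a median of 0.01. The call was lost without knockdown clone 2 (0.63, adjusted p = 0.0761), without control clone 1 (0.68, adjusted p = 0.263), 2 (0.67, adjusted p = 0.243) or 3 (0.64, adjusted p = 0.241), and after adding the RNA quality measure as a covariate (0.69, adjusted p = 0.208), all in limma. With probe sets whose IDs end in _s_at or _x_at left out, SMURF2 was represented by another probe set and was not called (0.28, limma adjusted p = 0.243).

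The 250 bases before the SMURF2 start are shown because it was the member that rose (GRCh38.p14, chr17:64662308-64662557, minus strand, 5′ to 3′, from RefSeq). The same 3 motifs had no match there.
SMURF2: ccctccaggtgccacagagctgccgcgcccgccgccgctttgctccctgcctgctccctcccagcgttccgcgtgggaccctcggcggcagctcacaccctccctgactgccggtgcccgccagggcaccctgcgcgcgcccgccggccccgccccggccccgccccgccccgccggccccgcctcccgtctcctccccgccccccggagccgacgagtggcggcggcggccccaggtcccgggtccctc

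**Figure D2:**
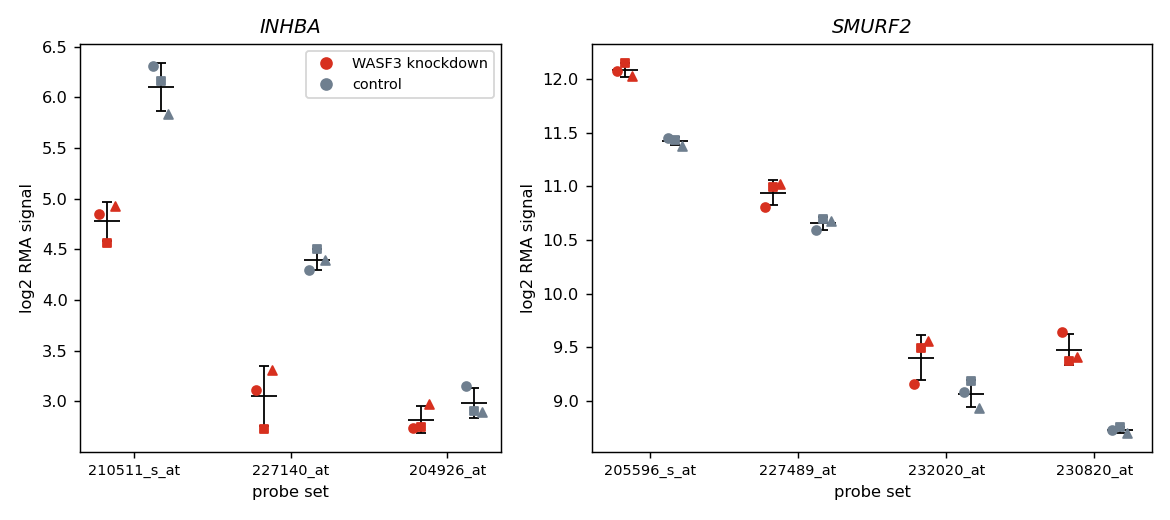
Log2 RMA signal (vertical axis) on each probe set of INHBA (left) and SMURF2 (right), with WASF3 knockdown clones left of control clones. Points are clones and bars the mean ± SD of 3 clones. On the 2 brighter probe sets of INHBA all knockdown clones lie below the controls, and on 3 of the 4 probe sets of SMURF2 all lie above.

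SMURF1, the paralogue of SMURF2, gave −0.06 (SE 0.09, 95% interval −0.28 to 0.16) on its brightest probe set. The corepressors SKI (−0.09, SE 0.14), SKIL (−0.21, SE 0.15) and TGIF1 (−0.02, SE 0.18) overlapped between groups. In SKIL clone 1 was above and clones 2 and 3 below the controls, at 9.08, 8.51 and 8.58 in knockdown clones 1, 2 and 3, against 8.89, 8.91 and 8.98 in control clones 1, 2 and 3.

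TGFBI, a secreted matrix protein named for its induction by TGF-beta, read 10.19, 9.12 and 10.30 in knockdown clones 1, 2 and 3, against 10.91, 10.90 and 10.998 in control clones 1, 2 and 3. All knockdown clones were lower and clone 2 was lowest. The difference of −1.07 (SE 0.29), or 47.7% of the control signal, missed the threshold (limma adjusted p = 0.158), and it was called without knockdown clone 3 (−1.28, limma adjusted p = 0.0414) and with array weights (−1.30, limma adjusted p = 0.0295).

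In ID1, ID2 and ID3 the range over the knockdown clones exceeded the difference between the group means. ID1, an inhibitor of helix-loop-helix transcription factors and a direct BMP target, read 12.78, 12.54 and 11.62 in knockdown clones 1, 2 and 3, against 12.81, 12.90 and 12.86 in control clones 1, 2 and 3. Its difference of −0.55 (SE 0.27, limma adjusted p = 0.427) came with no overlap, although clone 1 was just below the lowest control. ID2 read 7.94, 6.64 and 5.47 in knockdown clones 1, 2 and 3, against 6.52, 6.37 and 6.25 in control clones 1, 2 and 3, so that clones 1 and 2 were above and clone 3 below all controls. The clone 3 value of ID2 lies within the leukocyte marker range, so the size of its range is uncertain. ID3 read 10.65, 9.985 and 9.81 in knockdown clones 1, 2 and 3, against 10.06, 10.07 and 9.991 in control clones 1, 2 and 3, with clone 1 above and clones 2 and 3 below all controls. The differences of ID2 (0.31, SE 0.53) and ID3 (0.11, SE 0.20) were within the spread.

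The inhibitory SMADs and BAMBI, a decoy receptor without kinase activity, had the same clone order. SMAD6, which restrains BMP receptors, read 7.63, 6.67 and 5.55 in knockdown clones 1, 2 and 3, against 7.23, 7.09 and 7.12 in control clones 1, 2 and 3. SMAD7, which restrains both branches, read 8.06, 7.19 and 6.97 in knockdown clones 1, 2 and 3, against 7.87, 7.86 and 7.89 in control clones 1, 2 and 3. BAMBI read 8.66, 8.17 and 7.35 in knockdown clones 1, 2 and 3, against 8.35, 8.26 and 8.34 in control clones 1, 2 and 3. In each of these 3 genes clone 1 was above and clones 2 and 3 below all controls. The group differences were −0.53 (SE 0.45), −0.47 (SE 0.25) and −0.26 (SE 0.29) for SMAD6, SMAD7 and BAMBI, and none passed. SMAD7 was called without knockdown clone 1 (−0.79, limma adjusted p = 0.0235). The clone order of SMAD6 rests on its brightest probe set, where the SD over knockdown clones was 1.04, against 0.05, 0.13 and 0.02 on the other 3, which read within the leukocyte marker range. On the brightest probe set the clone 3 value of SMAD6 also lies within that range, so the size of its fall is uncertain.

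In 7 members clone 1 was highest, clone 3 lowest and clone 2 between, with a range of at least 0.8 log2 units, namely ID1, ID2, ID3, SMAD6, SMAD7, BAMBI and BMPR1B. This order and this minimum were chosen after the values were seen, and the count is given as a description. The share was 16.7% of the members and 3.21% of all genes. With no minimum on the range, 13 members had this order, or 31.0% against 20.6% of all genes. A range of at least 1 log2 unit across the knockdown clones was found in 12 members, or 28.6% against 6.00% of all genes, and across the control clones in 0. Above a mean of 5 the shares of genes were 4.53% for the order with that minimum, 22.5% for the order alone and 8.21% for the range of at least 1. The 3′ minus 5′ measure of RNA quality was 2.11, 1.62 and 1.66 in knockdown clones 1, 2 and 3, and clone 1 was the highest of the 6 arrays. WASF3 read 5.40, 5.80 and 4.52 in knockdown clones 1, 2 and 3, all within the leukocyte marker range. The 7 luminal and epithelial markers summed to 43.7, 39.9 and 38.4 in knockdown clones 1, 2 and 3, against 39.6 to 40.5 in control clones. Of these markers CDH1 read 7.33, 4.44 and 4.47 in knockdown clones 1, 2 and 3, against 4.59 to 5.19 in control clones, and GATA3 read 7.76, 6.89 and 6.70 in knockdown clones 1, 2 and 3, against 7.28 to 7.48 in control clones. EPCAM was highest in clone 2, at 7.88, 8.67 and 7.38 in knockdown clones 1, 2 and 3, against 7.39 to 7.53 in control clones. The other 4 (ESR1, PGR, ERBB2 and FOXA1) ranged over at most 0.384 across the knockdown clones. Their part in the clone order was not tested.

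**Figure D3:**
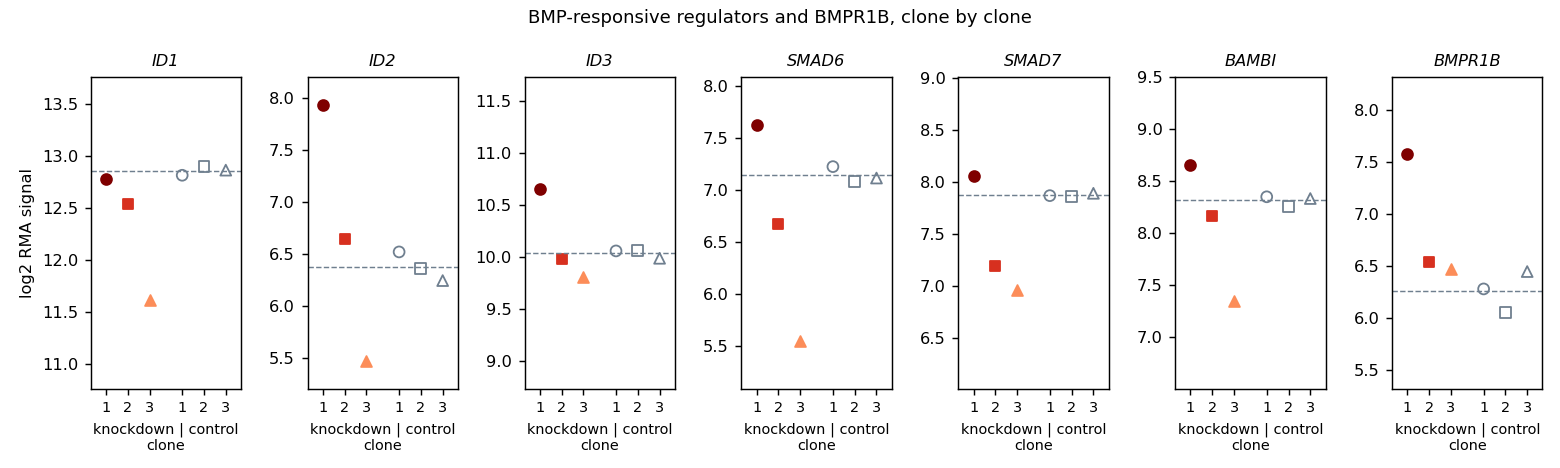
Log2 RMA signal (vertical axis, a span of 3 log2 units in each panel) of 7 members in WASF3 knockdown clones 1 to 3 (filled, left) and control clones 1 to 3 (open, right). The dashed line is the control mean. In each panel knockdown clone 1 is highest and clone 3 lowest among the knockdown clones, while control clones lie within 0.394 log2 units of each other.

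The 250 bases before the starts of SMAD6 (GRCh38.p14, chr15:66701986-66702235, plus strand) and BAMBI (GRCh38.p14, chr10:28677271-28677520, plus strand) are shown because both genes shared the clone order and held a match. Capitals mark GTCTAGAC in SMAD6, which begins 12 bases before the start, and GGCGCC in BAMBI, which begins 209, 196 and 181 bases before it. SMAD6 was the 1 member of 39 matched in the RefSeq table with GTCTAGAC in this window. GGCGCC stood before 16 of these 39 member genes, or 41.0%, against 16.4% of all starts. A member gene counts if any of its starts has a match, while the other share counts each start, so these are unlike measures. Of the genes with the clone order, ID1, ID2, ID3, SMAD7 and BMPR1B were not among the member genes with a match to any of the 3 motifs. A link between motif and clone order was not tested. A match is a run of letters and no evidence of binding in these cells.
SMAD6: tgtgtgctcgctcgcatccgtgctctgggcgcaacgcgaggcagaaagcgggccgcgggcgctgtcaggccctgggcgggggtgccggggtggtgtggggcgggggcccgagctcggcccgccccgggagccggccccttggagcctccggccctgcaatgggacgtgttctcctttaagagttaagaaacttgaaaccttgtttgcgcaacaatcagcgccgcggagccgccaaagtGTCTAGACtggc
BAMBI: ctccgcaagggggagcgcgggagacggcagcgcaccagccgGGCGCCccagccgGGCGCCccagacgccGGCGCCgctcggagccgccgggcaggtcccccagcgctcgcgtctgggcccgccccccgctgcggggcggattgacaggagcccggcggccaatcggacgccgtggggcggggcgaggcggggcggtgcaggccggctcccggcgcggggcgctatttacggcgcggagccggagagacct

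Other genes of the pathway were followed in 6 lists, and most of their members were not called. The lists were chosen with earlier results of these data known, so shares and medians of a list are given as a description. Among 22 other TGF-beta-induced genes, 2 were lower and 0 higher, or 9.09% against 0.420% of all genes called lower. These were ANGPTL4, a secreted lipase inhibitor that also responds to hypoxia (−1.23, SE 0.08, limma adjusted p = 0.00578), and BHLHE40, a helix-loop-helix repressor (−0.95, SE 0.12, limma adjusted p = 0.0317). With RNA quality as a covariate neither was called, at −1.25 for ANGPTL4 and −0.81 for BHLHE40 (limma adjusted p = 0.173 and 0.227). Both calls were also lost without control clone 1, 2 or 3 (limma adjusted p = 0.0875, 0.0810 and 0.0888 for ANGPTL4, and 0.260, 0.230 and 0.241 for BHLHE40), and that of BHLHE40 without knockdown clone 2 (limma adjusted p = 0.0776). The median of this list was −0.32, and at an unadjusted p under 0.05 limma put 2 higher and 10 lower, where the shares of all genes were 9.11% and 7.67%. Among genes with a mean above 5 these shares were 12.7% and 9.68%. The clone medians of this list were −0.36, −0.34 and −0.14 in knockdown clones 1, 2 and 3. Chosen after their values were seen, the transglutaminase TGM2 gave −1.06 (SE 0.21, limma adjusted p = 0.0845) without overlap, and the cytokine IL11 gave 2.34 (SE 0.57, limma adjusted p = 0.128), also without overlap. CCN2, a classic TGF-beta target also chosen in this way, overlapped (0.37, SE 0.32).

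The counts at an unadjusted p that follow for the other lists are read against the same 9.11% and 7.67% of all genes. Among 20 other extracellular regulators 0 were called, and at an unadjusted p under 0.05 limma put 3 higher and 2 lower. NOG, which encodes the BMP antagonist noggin, read 7.86, 8.07 and 8.31 in knockdown clones 1, 2 and 3, against 7.49, 7.56 and 7.53 in control clones 1, 2 and 3. It was higher in every knockdown clone, yet the difference of 0.55 (SE 0.12) missed the threshold (limma adjusted p = 0.108). CRIM1, a membrane protein that binds BMPs, gave 0.54 (SE 0.15, limma adjusted p = 0.180) without overlap. Among 11 SMAD regulators and cofactors 0 were called, and at an unadjusted p under 0.05 limma put 2 higher and 1 lower. PPM1A, a phosphatase of SMAD2 and SMAD3, gave 0.44 (SE 0.09, limma adjusted p = 0.0945), and ZFYVE9, the anchor protein SARA that presents SMAD2 to the receptor, gave −0.39 (SE 0.09, limma adjusted p = 0.126), both without overlap.

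Among 18 other ligands 0 were called, and at an unadjusted p under 0.05 limma put 1 higher and 0 lower. The activin subunit gene INHBC gave 0.52 (SE 0.10, limma adjusted p = 0.0846) without overlap, and BMP8B gave 0.18 (SE 0.10). Of 6 other receptors 0 were called and 0 had an unadjusted p under 0.05 in limma, with ACVRL1 at −0.27 (SE 0.14) and RGMB at 0.38 (SE 0.21). Both group means of ACVRL1 lie within the leukocyte marker range. Of 8 other BMP-induced genes 0 were called, and at an unadjusted p under 0.05 limma put 1 higher and 1 lower. MSX1, a homeobox gene, gave −0.45 (SE 0.14, limma adjusted p = 0.212), with every value within the leukocyte marker range. ATOH8, a helix-loop-helix factor, read 7.58, 7.37 and 6.32 in knockdown clones 1, 2 and 3, against 6.35, 6.37 and 6.17 in control clones 1, 2 and 3, with the same clone order as the ID genes. The list medians were −0.02 for extracellular regulators, −0.03 for SMAD cofactors, −0.07 for ligands, 0.00 for receptors and −0.08 for BMP-induced genes, against −0.01 over all genes.

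**Figure D4:**
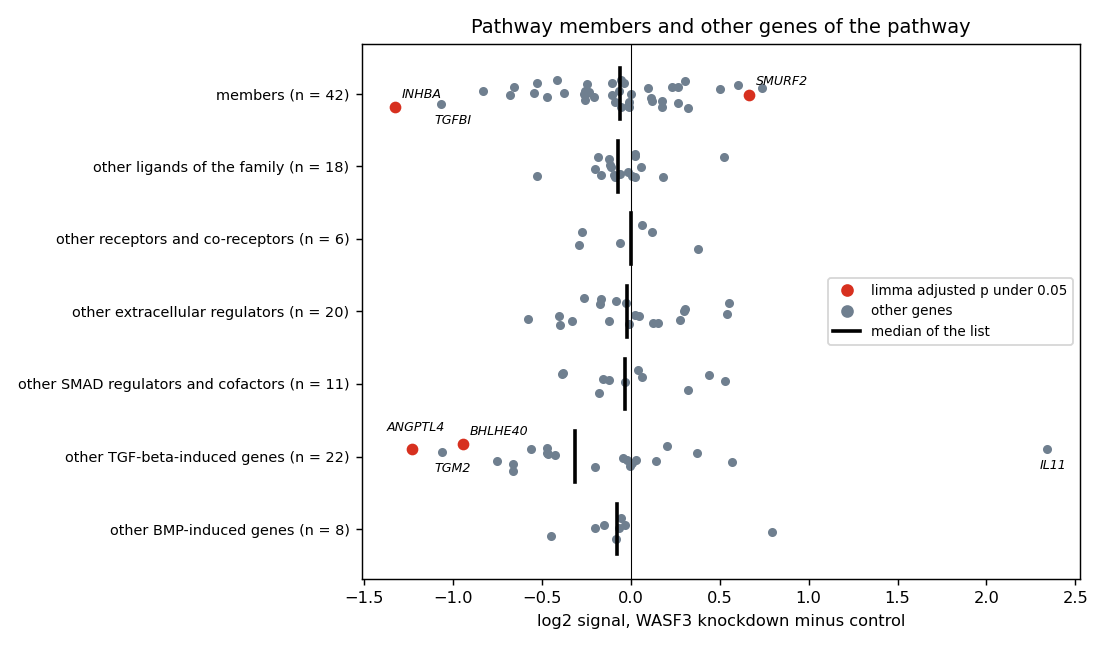
Difference in log2 signal, WASF3 knockdown minus control (horizontal axis), of the 42 members and of the genes in 6 other lists of the pathway. Each point is 1 gene, red points are genes called by limma (INHBA, SMURF2, ANGPTL4 and BHLHE40) and black bars are list medians. The median of the TGF-beta-induced list lies at −0.32, and the other medians lie between −0.08 and 0.00.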

How the data were processed

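The unit is the deposited log2 signal. The submitters' processing notes name RMA and Expression Console 1.0, and biotin-labelled RNA amplified from the 3′ end is given per the labels' protocols. RMA forces a common distribution on all arrays, so a shift shared by most transcripts cannot be seen. Array medians lay between 5.13 and 5.17. Scanner files were not used here.

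Probe sets took gene symbols from the platform annotation, updated by gene identifier to RefSeq GRCh38.p14. Of them, 41091 had 1 symbol (41037 matched by identifier), 1801 several and 11721 none, and 62 controls were left out. A gene was named from probe sets with 1 symbol. limma 3.58.1 (lmFit and eBayes, group as the term) in R 4.3.3 was fitted to all 6 arrays, two-sided, after it was tested on simulated data. Members, lists and alternatives were chosen with earlier results of these data known. The text names all members, up to 4 called genes of each other list or the 2 with the smallest p, and others where said. Nothing beyond the clone labels says that replicates are independent, so p-values measure the spread between these samples. Alternatives were each clone left out, a replicate block, an intensity trend, 2 other normalizations, a filter at a mean of 5, 3 other choices of probe set, the 3′ minus 5′ covariate, array weights, and control probe sets kept.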

Additional observations from a re-analysis of the deposited data

How the results depend on the processing

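With control probe sets kept (chosen after seeing the data), and with quantile normalization applied again, an intensity trend or a filter at a mean of 5, all members with a value kept their direction and their side of the threshold. Members called higher numbered 1 and lower 1, and were 0 and 0 with the replicate block and with the 3′ minus 5′ covariate, 1 and 3 with array weights (INHBA, BMP2 and TGFBI lower), 0 higher without _s_at and _x_at probe sets, 0 to 2 higher and 0 to 3 lower with 1 clone left out. All genes called higher numbered 63 and lower 83, and 0 and 3 with the block, 0 and 1 with the covariate, 19 and 44 with the trend, 419 and 295 with array weights, 110 and 128 with all probe sets of a gene averaged, 97 higher with the filter, 104 higher with the probe set of largest interquartile range, and 0 to 784 higher and 2 to 441 lower with 1 clone left out. The replicate numbers did not pair the clones: same-numbered deviations correlated at −0.07, −0.10 and −0.04, and 0 of 6 samples correlated best with their own number. Under the replicate block INHBA gave −1.33 (limma adjusted p = 0.148) and SMURF2 0.66 (limma adjusted p = 0.162), while ANGPTL4 gave −1.23 (limma adjusted p = 0.0793) and BHLHE40 −0.95 (limma adjusted p = 0.145). The members' median of −0.06 was −0.17 with the covariate and −0.13 to −0.04 with 1 clone left out.

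A member with no probe set left under a filter has no value there. Members that changed sign were not called in either setting. With arrays shifted to 1 median these were FSTL3 (0.013), ENG (0.011), SMAD5 (0.020) and TGIF1 (0.0039). With all probe sets of a gene averaged they were ACVR2B (−0.029), BMPR2 (0.064), SMAD4 (0.020), SMAD5 (0.24) and TGIF1 (0.034). Without _s_at and _x_at probe sets they were TGFB1 (0.068), GREM1 (−0.10), SMAD2 (−0.12) and TGIF1 (0.15), and with the largest interquartile range ACVR2B (−0.19), BMPR2 (0.65) and SMAD5 (0.46). With the covariate they were BMP6 (0.027), GREM1 (−0.11), BMPR1B (−0.12), ACVR2A (−0.14), TGFBR3 (−0.071), TGIF1 (0.54), ID2 (−1.06) and ID3 (−0.48). With array weights they were TGFB2 (−0.0058), BMP6 (0.034), SMAD1 (0.00023) and TGIF1 (0.049). With 1 clone left out the ranges that crossed 0 were BMP6 (−0.20 to 0.020), FSTL3 (−0.089 to 0.061), ACVR2A (−0.019 to 0.21), TGIF1 (−0.17 to 0.19), ID2 (−0.32 to 0.91), ID3 (−0.14 to 0.28), TGFB3 (−0.073 to 0.017), BMP4 (−0.019 to 0.62), ENG (−0.11 to 0.10), SMAD4 (−0.12 to 0.038), SMAD5 (−0.032 to 0.022), TGFB2 (−0.090 to 0.42), FST (−0.050 to 0.82), BAMBI (−0.56 to 0.099), SMAD1 (−0.25 to 0.090), SMAD6 (−1.03 to 0.0089) and SKI (−0.23 to 0.030). The cause of these changes was not tested, beyond fewer samples in the fits that leave out a clone. Signal near the leukocyte marker range limits INHBA, TGFB3, BMP6, GREM1 and ENG, and also WASF3 in the knockdown clones. The same holds for INHBB, ID2 and SMAD6 in knockdown clone 3 and for BMPR1B in control clone 2.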
